A study of Oryctolagus cuniculus with 3 samples.

Results

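NADPH oxidases are membrane enzymes that pass electrons from NADPH to oxygen and so make superoxide or hydrogen peroxide. In the phagocyte enzyme the catalytic subunit CYBB (also called NOX2) sits in the membrane with its partner CYBA, and it works once cytosolic proteins, NCF1 and NCF4 among them, and the GTPase RAC2 have joined it. NOX4 needs CYBA but no cytosolic activator, is active as it is made, and is the usual NADPH oxidase of vascular smooth muscle. NOX1 works with the organizer NOXO1 and the activator NOXA1.

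The genes described here are 9 named NADPH oxidase subunits (CYBB, CYBA, NCF1, NCF4, RAC2, NOX1, NOX4, NOXA1 and NOXO1), chosen by symbol and not by their values. A row was found for 4 of the 9, CYBB, NCF4, RAC2 and NOX4, out of 15248 rabbit genes in the table. The other 5 are not analysed here, so the phagocyte subunits could be set against NOX4 but not against NOX1.

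RNA came from the aortic media of male rabbits of the strain JW/CSK, aged 9 months, and was measured in 3 libraries. The first group carried a mouse PGC-1alpha transgene and ate a high-cholesterol diet for 20 weeks, the second was non-transgenic on the same diet, and the third was non-transgenic on chow. PGC-1alpha is a coactivator of mitochondrial gene programs, and no label names the promoter that drives the transgene. Each group is 1 library made from pooled RNA of 5 rabbits, so there is no spread between animals, no test and no p-value, and every difference is one between libraries.

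Values are FPKM, which are scaled to gene length, so levels of different genes can be set side by side within a library. A difference below is that of log2(FPKM + 1), and 2-fold means a difference of 1 or more on this scale. Mouse Ppargc1a stood at 12.8 FPKM in the transgenic library and at 0 in the non-transgenic ones, as labelled. All 17 contractile smooth muscle marker rows found were above 0 in each library, with summed FPKM of 22687 in the transgenic, 16043 in the non-transgenic cholesterol and 39756 in the chow library. FPKM totals over all rows ran from 824460 to 943181. The absolute depth is unknown. The steps between the lowest values put the transgenic and non-transgenic cholesterol libraries at 1.26 and 1.29 times the fragments of the chow library. The chow library was run on lane 3 and both cholesterol libraries on lane 2, so lane and diet cannot be told apart.

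On the cholesterol diet the phagocyte subunits stood many times above their chow levels in non-transgenic media, while NOX4 was at nearly the same level. Of the 4 subunits with a row, 3 (RAC2, NCF4 and CYBB) were at least 2-fold higher than on chow and none was lower. Of the 11597 genes that averaged 1 FPKM or more over the libraries, 15.9% were at least 2-fold higher and 6.99% lower. All 4 subunits passed that filter, but NCF4, at 0.38 FPKM on chow, passed only through the cholesterol libraries. The median difference of RAC2, NCF4 and CYBB was 4.29, against 0.19 for NOX4 and 0.02 for the median gene.

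**Figure D1:**
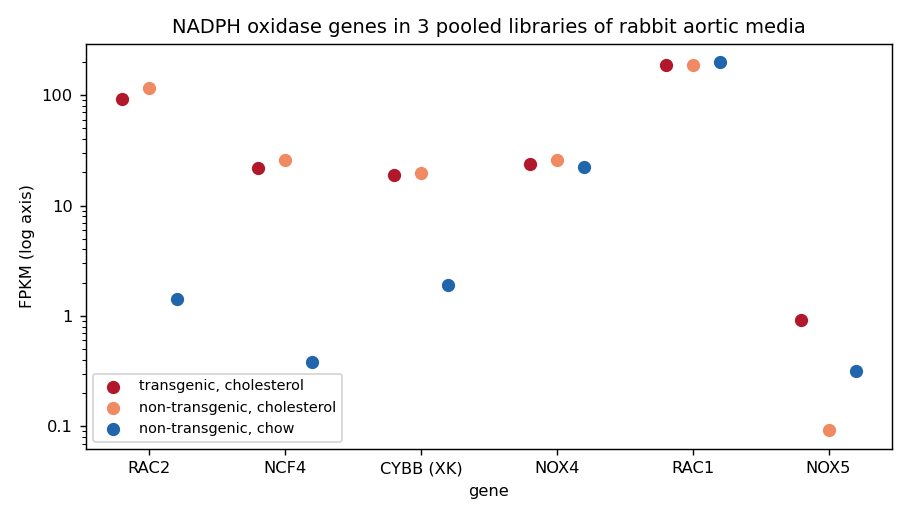
FPKM on a log axis of the NADPH oxidase genes RAC2, NCF4, CYBB (row shared with XK), NOX4, RAC1 and NOX5, 1 point for each of the 3 pooled libraries. RAC2, NCF4 and CYBB stand between 19.0 and 116 FPKM in both cholesterol libraries and at 1.91 or less on chow, while NOX4 lies between 22.4 and 25.7 in all 3.

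Among the catalytic subunits, CYBB (ENSOCUG00000006566, OryCun2.0 chromosome X, 23257098 to 23394436) stood at 19.8 FPKM in the non-transgenic cholesterol library and 1.91 FPKM on chow. That is a ratio of 10.3 and a log2 difference of 2.83, and 3.79% of the tested genes had a larger difference. The row carries the joined symbol CYBB/XK. XK encodes a membrane protein of the Kell blood group complex. In the RefSeq assembly mOryCun1.1, XK and CYBB are neighbours with 0 coding genes between them, and the gene number the table gives for the row is that of XK. The value therefore covers both genes, and how much of it belongs to CYBB in each library cannot be told apart.

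NOX4 (ENSOCUG00000016685, chromosome 1, 127339683 to 127534293) stood at 23.6 FPKM in the transgenic, 25.7 FPKM in the non-transgenic cholesterol and 22.4 FPKM in the chow library. Its diet difference was 0.19, a ratio of 1.15, and 22.9% of the tested genes had a smaller absolute difference. In rank NOX4 lay above 75.2% of all rabbit genes on chow and above 76.0% in the non-transgenic cholesterol library. Contractile markers moved in the other direction over the same pair of libraries, with 16 of 17 at least 2-fold lower on cholesterol and a median of -1.31. NOX4 did not follow them. Endothelial cells and fibroblasts can also express NOX4. Of 13 endothelial markers 3 were at least 2-fold higher and 1 was lower (median 0.93), and of 10 adventitial fibroblast markers 2 were higher and 3 lower (median -0.39). Of 3 adipocyte markers 3 were higher, and of 3 epithelial markers 1 was higher and 1 lower. Beside all these marker counts, 15.9% of the tested genes were at least 2-fold higher on cholesterol and 6.99% lower. Lower RNA per cell and fewer cells of a type cannot be told apart in such bulk samples.

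RAC2, the GTPase of blood cell NADPH oxidase (ENSOCUG00000016115, scaffold GL018973, 53587 to 65814), had the largest diet difference of the 4. It stood at 116 FPKM in the non-transgenic cholesterol library and 1.42 FPKM on chow, a ratio of 81.6 and a difference of 5.60. Only 48 of the 11597 tested genes, or 0.414%, differed more in that direction. It lies within the span the table gives for IL2RB, a lymphocyte receptor gene at 0.77 FPKM in the non-transgenic cholesterol library and listed at 0 on chow. Counting by strand is not stated, so reads of overlapping parts cannot be told apart. RAC1, the form found in most cells and close to RAC2 in sequence, stood at 188 FPKM in the transgenic, 188 FPKM in the non-transgenic cholesterol and 198 FPKM in the chow library. RAC2 was at 0.62 of the RAC1 level in the non-transgenic cholesterol library and at 0.0072 on chow.

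NCF4 encodes p40phox, the cytosolic subunit that binds phosphoinositides on the phagosome (ENSOCUG00000021337, chromosome 4, 85022625 to 85038936). It stood at 26.1 FPKM in the non-transgenic cholesterol library and 0.38 FPKM on chow. The ratio was 68.6 and the difference 4.29, and that difference is smaller than the ratio because 1 is added to a chow value under 1. Of the 11597 tested genes 151 had a larger difference. The ratio rests on a low chow value whose counting error is unknown.

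The order of the subunits by level was turned over. On chow, NOX4 led at 22.4 FPKM, and CYBB, RAC2 and NCF4 followed at 1.91 FPKM or less. In the non-transgenic cholesterol library RAC2 led, NCF4 (26.1 FPKM) and NOX4 (25.7 FPKM) were nearly level, and CYBB came last. In the transgenic library RAC2 again led at 92.2 FPKM, with NOX4 at 23.6, NCF4 at 22.0 and CYBB at 19.0 FPKM. With no replicates, neighbours as close as NCF4 and NOX4 cannot be ordered.

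**Figure D2:**
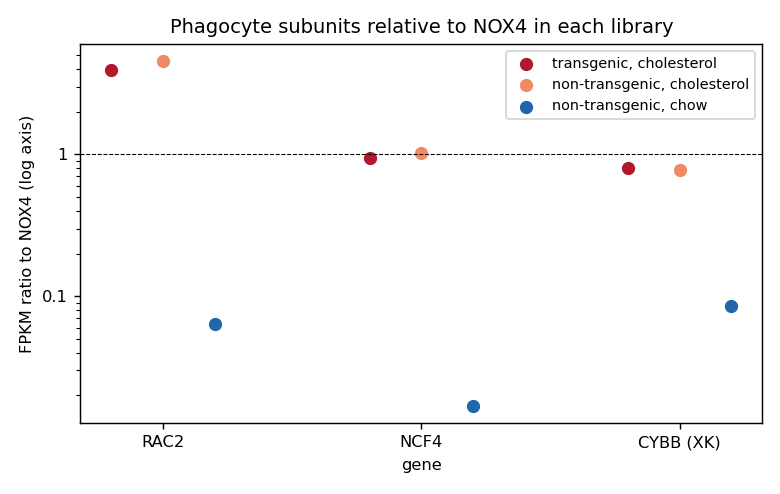
Ratio of the FPKM of RAC2, NCF4 and CYBB (row shared with XK) to that of NOX4 within each of the 3 pooled libraries, on a log axis. The dashed line marks equal levels, and the ratios lie between 0.77 and 4.53 in the cholesterol libraries and between 0.017 and 0.085 on chow.

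Set against NOX4 within a library, CYBB stood at 0.80 of its level in the transgenic, 0.77 in the non-transgenic cholesterol and 0.085 in the chow library. RAC2 stood at 3.91, 4.53 and 0.064 times NOX4 in the transgenic, non-transgenic cholesterol and chow libraries. NCF4 stood at 0.93, 1.02 and 0.017 times NOX4 in the transgenic, non-transgenic cholesterol and chow libraries. RAC2 stood at 4.18 times NCF4 in the transgenic, 4.46 times in the non-transgenic cholesterol and 3.75 times in the chow library. CYBB stood at 0.86 and 0.76 times NCF4 in the transgenic and non-transgenic cholesterol libraries and 5.03 times on chow. The share of XK in the chow value of that row was not measured.

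Macrophage markers moved with the phagocyte subunits. Of 20 marker rows found, 19 passed the filter. In the non-transgenic cholesterol library 18 of these were at least 2-fold higher than on chow, against 15.9% of all tested genes. The markers had a median difference of 4.65 and a range of 0.87 to 9.65. Their summed FPKM was 4833 in the transgenic, 5259 in the non-transgenic cholesterol and 90.6 in the chow library, where 2 of the 20 (SPI1 and MARCO) were listed at 0. The difference of RAC2 was larger than that of 15 of the 19 markers, that of NCF4 larger than 7, and that of CYBB larger than 5. The part of macrophage number in the subunit values was not tested.

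Relative to CD68, a lysosomal protein of macrophages, RAC2 stood at 0.265 in the transgenic, 0.268 in the non-transgenic cholesterol and 0.400 in the chow library. NCF4 stood at 0.063, 0.060 and 0.107 times CD68 in the transgenic, non-transgenic cholesterol and chow libraries. Relative to PTPRC, the leukocyte surface phosphatase CD45, the direction was the other. RAC2 stood at 3.82 times PTPRC in the transgenic, 3.02 in the non-transgenic cholesterol and 1.62 in the chow library. NCF4 stood at 0.91, 0.68 and 0.43 times PTPRC in the transgenic, non-transgenic cholesterol and chow libraries. Whether RAC2 and NCF4 were higher or lower per leukocyte transcript on cholesterol therefore depended on the marker used. The row of CYBB and XK was lower on cholesterol relative to each of the 4 markers compared. It stood at 0.054 times CD68 in the transgenic, 0.046 in the non-transgenic cholesterol and 0.54 in the chow library. Relative to PTPRC it stood at 0.78, 0.51 and 2.17 times in the transgenic, non-transgenic cholesterol and chow libraries. Relative to LAPTM5 it stood at 0.038, 0.029 and 0.143 times, and relative to ITGB2 at 0.090, 0.071 and 0.92 times, in the same order of libraries.

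Other leukocytes also express these subunits. Neutrophil markers were low in level, and their sum was also higher on cholesterol than on chow. They had 6 rows, summed FPKM of 36.1 in the transgenic, 12.5 in the non-transgenic cholesterol and 0.036 in the chow library, and 5 of the 6 listed at 0 on chow. The 3 that passed the filter (S100A8, S100A9 and S100A12) were at least 2-fold higher on cholesterol, with a median of 2.54, and since each was listed at 0 on chow they passed only through the cholesterol libraries. Their genotype differences had a median of 0.99, with S100A8 at least 2-fold higher in the transgenic library. S100A8, which macrophages can also make, stood at 24.8, 6.07 and 0 FPKM in the transgenic, non-transgenic cholesterol and chow libraries. The part of neutrophils in the subunit values was not tested. CSF3R, the granulocyte growth factor receptor, stood at 0.40, 0.14 and 0.036 FPKM in the same order of libraries. Among lymphocyte markers, CD3E of the T cell receptor stood at 1.13 FPKM in the transgenic, 2.81 in the non-transgenic cholesterol and 2.20 in the chow library. Of the 3 lymphocyte markers that passed the filter 1, JCHAIN, was at least 2-fold higher on cholesterol. Beside the neutrophil and lymphocyte counts, 15.9% of all tested genes were at least 2-fold higher on cholesterol. JCHAIN, the joining chain of secreted antibodies, made up most of the lymphocyte sum of 46.0, 190 and 10.2 FPKM in the transgenic, non-transgenic cholesterol and chow libraries.

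Between the transgenic and the non-transgenic library on cholesterol, none of the 4 subunits differed by 2-fold, where 1.70% of the tested genes were higher and 2.10% lower. All 4 were lower in the transgenic library by 0.33 or less, but CYBB and NOX4 turned above 0 when each library was rescaled to the same FPKM total. RAC2 stood at 92.2 FPKM in the transgenic and 116 FPKM in the non-transgenic library, a difference of -0.33, and 68.6% of the tested genes had a smaller absolute difference. NCF4 stood at 22.0 and 26.1 FPKM in the transgenic and non-transgenic libraries (-0.23). CYBB stood at 19.0 FPKM in the transgenic and 19.8 FPKM in the non-transgenic library (-0.06), and NOX4 at 23.6 and 25.7 FPKM (-0.12). The median absolute difference over all tested genes was 0.21.

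Under that rescaling CYBB stood at 0.07 and NOX4 at 0.01, while the median of all genes moved to 0.105, so both lay below it. Macrophage markers had a median of -0.32 in this comparison, with 14 of 19 below 0, so RAC2 lay with 9 markers below it and 10 above. They did not move as one, since 2 of the 19 were at least 2-fold higher and 1 was lower. Over all tested genes 1.70% were higher and 2.10% lower. The complement genes C1QB and C1QC were higher in the transgenic library, by 1.79 and 1.42, and the scavenger receptor MSR1 had a difference of -1.88. Contractile markers all lay above 0 in this comparison (17 of 17), with a median of 0.60 and none past 2-fold.

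Transgenic cholesterol against chow, a comparison that shares its libraries with the other 2, gave differences of 5.27 for RAC2, 4.06 for NCF4, 2.78 for CYBB and 0.07 for NOX4. The same 3 subunits were at least 2-fold higher, where 12.6% of all tested genes were higher and 2.53% lower.

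**Figure D3:**
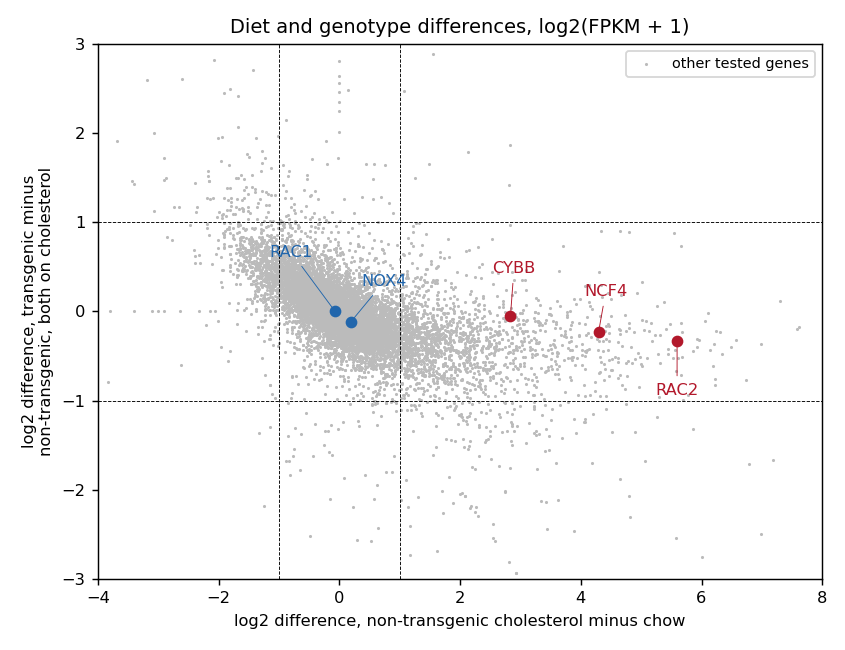
Difference of log2(FPKM + 1) between non-transgenic cholesterol and chow (horizontal) and between transgenic and non-transgenic on cholesterol (vertical), for 11597 genes in grey and 5 NADPH oxidase genes in colour, with dashed lines at 2-fold. Both axes use the non-transgenic cholesterol library, and 77 genes lie outside the drawn range. CYBB, NCF4 and RAC2 lie between 2.83 and 5.60 on the diet axis and within 2-fold on the genotype axis, and NOX4 and RAC1 lie near 0 on both.

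Of 15 names of other oxidase and assembly genes 12 had a row, and 7 passed the filter. At least 2-fold higher on cholesterol were 2 of the 7, and none was lower, with a median of 0.07. Over all tested genes 15.9% were higher and 6.99% lower, and a list of 7 genes is too small to be set apart from these shares. HVCN1, the proton channel that balances the charge moved by the phagocyte oxidase, stood at 12.4 FPKM in the transgenic, 13.9 in the non-transgenic cholesterol and 1.98 in the chow library. C17orf62, now named CYBC1 in humans and mice and a chaperone that CYBB needs, stood at 11.8, 15.5 and 4.37 FPKM in the transgenic, non-transgenic cholesterol and chow libraries. The other 5 had diet differences between -0.25 and 0.48. POLDIP2, a CYBA-binding protein known to raise NOX4 activity in smooth muscle cells, stood at 74.4 FPKM in the transgenic, 79.0 in the non-transgenic cholesterol and 75.1 in the chow library, and RAC1 had a diet difference of -0.08. The genotype differences of the 7 had a median of -0.16, with SH3PXD2B, an organizer protein of podosomes, the lowest at -0.46. SH3PXD2B had a diet difference of 0.48.

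NOX5, the calcium-activated catalytic subunit that mice and rats lack, was below the filter. It stood at 0.91 FPKM in the transgenic, 0.092 in the non-transgenic cholesterol and 0.32 in the chow library. Given the relative depths, these values stand in the proportion of 29, 3 and 8 fragments, which are the smallest whole numbers within 1% and may be multiples of that. The transgenic value was 9.93 times the non-transgenic one on cholesterol, with a difference of 0.81 on the log2(FPKM + 1) scale. The fragment numbers behind that ratio are unknown and may be as low as 29 and 3. The dual oxidases, which are peroxide-making relatives with a peroxidase-like domain, were at 0.211 FPKM or less in every library.

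Genes of oxidase activation in leukocytes were mostly higher on cholesterol. Of 28 names 24 had a row and 23 passed the filter, of which 18 were at least 2-fold higher, none was lower and the median was 2.87. Over all tested genes 15.9% were higher and 6.99% lower. Of the 28 names 2 also belong to the macrophage markers. ITGB2, the shared chain of leukocyte integrins, stood at 210 FPKM in the transgenic, 276 in the non-transgenic cholesterol and 2.09 in the chow library. Its partner ITGAM stood at 14.8, 22.5 and 0.16 FPKM in the transgenic, non-transgenic cholesterol and chow libraries. The adaptor TYROBP stood at 41.9 FPKM in the transgenic, 46.1 in the non-transgenic cholesterol and 0.69 in the chow library. Protein kinase C forms, which phosphorylate oxidase subunits, had differing values. PRKCB, a form common in leukocytes, stood at 1.56 FPKM in the transgenic, 3.14 in the non-transgenic cholesterol and 0.25 in the chow library. PRKCD stood at 39.0, 36.8 and 53.6 FPKM in the transgenic, non-transgenic cholesterol and chow libraries, and PRKCA had a diet difference of -0.22.

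None of the 23 activation genes differed 2-fold by genotype, against 1.70% higher and 2.10% lower over all tested genes. The median of the 23 was -0.32, with 20 below 0. PRKCZ, an atypical protein kinase C, had the largest absolute difference at 0.79, at 2.89 FPKM in the transgenic and 1.25 FPKM in the non-transgenic library. PRKCB followed at -0.69.

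Transcription factors known to act on the phagocyte oxidase genes in humans and mice had 13 rows, of which 10 passed the filter. On cholesterol 5 of the 10 were at least 2-fold higher and none lower, against 15.9% higher and 6.99% lower over all tested genes. The factors had a median of 1.02. The median was 0.60 with no filter on low values and 0.96 among genes above 0 in every library, and so under 2-fold. SPI1 (PU.1), the myeloid factor that is also a macrophage marker here, stood at 28.9 FPKM in the transgenic and 46.7 FPKM in the non-transgenic cholesterol library and was listed at 0 on chow. IRF8 stood at 39.4 FPKM in the transgenic, 43.5 in the non-transgenic cholesterol and 1.05 in the chow library. CEBPA stood at 8.23, 10.4 and 1.80 FPKM in the transgenic, non-transgenic cholesterol and chow libraries. IRF1 was at 13.7 FPKM in the transgenic and 17.2 FPKM in the non-transgenic library, a genotype difference of -0.31. None of the 10 factors differed 2-fold by genotype, against 1.70% higher and 2.10% lower over all tested genes.

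**Figure D4:**
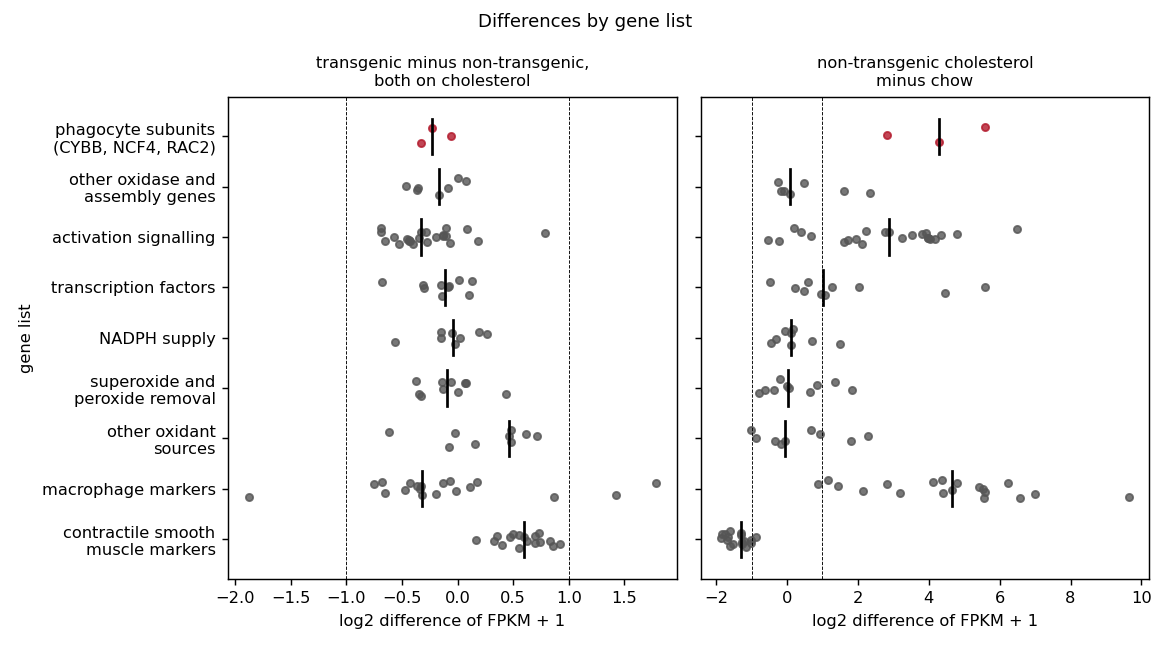
Differences of log2(FPKM + 1) for the genes of each list that passed the filter, with a bar at the list's median and dashed lines at 2-fold, for genotype (left) and diet (right). The phagocyte subunits, activation and macrophage lists have diet medians of 4.29, 2.87 and 4.65, and in the genotype panel no list median reaches 2-fold.

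Genes that supply NADPH or remove the products of the oxidase had medians near 0, and their counts were near the 15.9% higher over all tested genes. Of 8 NADPH supply genes measured, 1 was at least 2-fold higher on cholesterol (median 0.12). This was PGD of the pentose phosphate pathway, at 73.6 FPKM in the transgenic, 109 in the non-transgenic cholesterol and 38.0 in the chow library. Of 10 superoxide and peroxide removal genes 2 were at least 2-fold higher (median 0.02), the glutathione peroxidase GPX1 (1537 FPKM in the transgenic, 1953 in the non-transgenic cholesterol and 548 in the chow library) and catalase (CAT; 91.2, 86.3 and 33.2 FPKM). SOD3, the extracellular superoxide dismutase of the vessel wall, stood at 498 FPKM in the transgenic, 367 in the non-transgenic cholesterol and 636 in the chow library. Its diet difference was -0.79 and its genotype difference 0.44.

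Among 9 other enzymes that can make oxidants, 2 were at least 2-fold higher and 1 was lower on cholesterol, with a median of -0.05. These counts are near the background of 15.9% higher and 6.99% lower. The higher were the lipoxygenase ALOX5, at 12.9 FPKM in the transgenic, 11.5 in the non-transgenic cholesterol and 1.59 in the chow library, and the cyclooxygenase PTGS2, at 5.86, 5.97 and 1.01 FPKM. The lower was MAOB, the mitochondrial monoamine oxidase, at 98.2 FPKM in the transgenic, 63.7 in the non-transgenic cholesterol and 129 in the chow library. The genotype median of this list was 0.46, with 6 of 9 above 0, and PTGS1 had the largest value at 0.71. No gene of the 9 passed 2-fold by genotype, where the background was 1.70% higher and 2.10% lower. With 9 genes, a count of none cannot be set apart from that background.

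By the pair of diet and genotype differences, the genes nearest to CYBB among 8108 candidates were APH1B (distance 0.081 on the log2 scale), PHOSPHO1 (0.088) and ARHGDIB (0.096), and 26 lay within 0.25. ARHGDIB, the RAC-binding inhibitor of blood cells, is also in the activation list, at 93.7 FPKM in the transgenic, 101 in the non-transgenic cholesterol and 14.1 in the chow library. Nearest to NOX4 were HEATR5A (0.0085), CUTA (0.0099) and XRN2 (0.012), and 1596 genes lay within 0.25. A pattern over 3 libraries is shared by many genes and is given as a description only.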

How the data were processed

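Poly(A) RNA pooled from 5 rabbits made 1 TruSeq library per group, per the labels' protocols. The authors deposited FPKM per gene, per the file headers, on OryCun2.0, per the submitters' processing notes. No source used here names their aligner, quantifier or scaling. Columns were matched to libraries by number, and 2 further sheets with named columns held the same values in 1769 of 1769 and 9933 of 9933 rows.

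Genes were matched by symbol, any joined name counting, except a ribonuclease row also named RAC1. The members and lists (6 pathways, 8 cell types) were chosen with earlier results of these data known. Named are all subunits, the 3 largest diet and 2 largest genotype differences per pathway list, RAC1, NOX5, POLDIP2, C17orf62 and the nearest genes to CYBB and NOX4 (mean from 5 FPKM, above 0 in all libraries). Some genes of the lists and of this rule are not reported here. Others were picked after their values were seen. Differences used log2(FPKM + 1) and genes averaging 1 FPKM or more. Relative depth came from ratios of values under 0.1 FPKM, 89.7% of them within 1% of a ratio of small whole numbers. Counts of lists use those with at least 5 measured genes. The 2-fold call was checked only on chow values changed by set factors without noise, so its outcome was fixed in advance. No low value was changed in that check. Pseudocounts of 0.1 and 5, other scalings and filters and a threshold of 1.5-fold were the alternatives. Python 3.11.15, numpy 2.4.6, pandas 2.3.3 and matplotlib 3.10.9 were used.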

Additional observations from a re-analysis of the deposited data

How the results depend on the processing

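The count of 3 subunits at least 2-fold higher by diet, and of 0 by genotype, was the same under pseudocounts of 0.1 and 5, both other scalings, all filters and a threshold of 1.5-fold. Added after seeing the data, leaving out the CYBB row gave 2. The median of the phagocyte subunits minus NOX4 ranged from 2.37 (pseudocount 5) to 5.57 (pseudocount 0.1) for diet, and from -0.16 to -0.10 for genotype. Rescaling to the same FPKM total put the median of all genes at 0.075 for diet, 0.105 for genotype and 0.185 for transgenic cholesterol against chow. Lists with a median at least 2-fold higher in the transgenic cholesterol library than on chow numbered 2, against 4 with no filter and 4 at 1.5-fold, and lists that were lower numbered 0, against 1 at 1.5-fold. By genotype the number of higher lists was 0, against 1 at 1.5-fold. Genes at least 2-fold higher by diet numbered 1846, against 1118 with a pseudocount of 5 and 2817 at 1.5-fold, and those lower 811, against 413 and 1925. By genotype 197 were higher, against 323 with a pseudocount of 0.1, 75 with 5, 117 at a mean of at least 5 FPKM and 708 at 1.5-fold. Lower by genotype were 244, against 96 with a pseudocount of 5, 118 at a mean of at least 5 FPKM, 160 above 0 in all libraries and 778 at 1.5-fold. No replicate could be left out. No paired analysis was possible because each group has 1 library. The unknown depth limits all values under 1 FPKM.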
